A study of Sus scrofa with 60 samples.

Results

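Genes of DNA replication and cell division were followed through liver development in the pig, on an expression array that carried 98 probe-sets for 71 such genes, among 23999 probe-sets of pig transcripts and 6765 genes named in their annotation. A probe-set is the group of short probes that reads out 1 transcript. Members were chosen by name: probe-sets whose annotation gives the single symbol PCNA, CHEK1, RACGAP1, TOP2A, RRM1 or RRM2, or a symbol of the MCM, CCNA, CCNB, CCND, CCNE, CDK, CDC, CENP, KIF, BUB, AURK, PLK, RFC, POLA, POLD or POLE series. Symbols that start with CDC42, a regulator of the cell skeleton, were left out.

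The livers came from 60 German Landrace pigs, all offspring of first-litter sows on a gestation diet of adequate protein content, with 15 fetuses at 94 days post conception (94 dpc), 15 newborns at 1 day post natum (1 dpn), 14 piglets at 28 dpn and 16 grown pigs at 188 dpn. No animal carried a transgene or received a test agent. The fetuses were taken by Caesarean section, in another experiment than the postnatal animals, so prenatal life and experiment cannot be told apart. By the study's methods the animals were sibling pairs, chosen for a light and a heavy sibling at 94 dpc and 1 dpn, males were castrated in the first days, and the piglets for 28 and 188 dpn grew up with foster sows. Piglets of a litter were spread over the 3 postnatal stages, so these stages share litters as well. The labels give neither litter nor weight nor sex, so siblings entered the tests as separate animals and the p-values may be too small. Adjacent stages were compared as period I (94 dpc to 1 dpn), period II (1 dpn to 28 dpn) and period III (28 dpn to 188 dpn), and 94 dpc with 188 dpn as the whole span.

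A dividing cell first loads MCM helicases onto its replication origins, then copies its DNA in S phase with polymerases held by the PCNA clamp and fed by ribonucleotide reductase, and then separates the copies in mitosis under cyclin B, CDK1, Aurora and Polo kinases. Many of these transcripts are made in cells between late G1 and mitosis and are scarce in resting cells. The fetal liver grows fast and also houses blood formation, whereas the hepatocytes of a grown animal rest. In a bulk sample fewer dividing cells and less RNA per cell cannot be told apart.

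The members were therefore read in 3 groups. A core of 45 probe-sets for 32 genes covers genes whose transcripts are known to peak between S phase and mitosis. A second group of 12 probe-sets for 12 genes encodes subunits and regulators that work in the same machines without such a peak. The last 41 probe-sets, for 27 genes, carry a member's name without a place in any of these lists, as with CDK5, KIF5B and CDC37. MCM6, MCM7, CDK1, CDK4, CCND1 and CCND3 were not analysed here.

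Levels are log2(intensity + 16). Of the 98 probe-sets, 77 were high enough to be tested in period I, 75 in period II, 65 in period III and 72 over the whole span, and 75 of 77 changed over the 4 stages by limma at an adjusted p below 0.05, against 93.2% of all probe-sets tested. With so general a change, the direction and size of the members' changes were set against those of all probe-sets. Arrays were scaled by the authors to a common mean, and the median over all tested probe-sets moved by -0.15 in period I, -0.10 in period II, -0.04 in period III and -0.34 over the whole span.

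The core genes fell mainly in periods II and III. In period I, 4 of the 36 core probe-sets tested rose and 9 fell, against 23.9% and 41.1% of all probe-sets tested, with a median change of -0.21. In period II, 1 rose and 26 of 36 fell, against 28.5% and 39.0% of all, with a median of -0.74. In period III none rose and 24 of 26 fell, against 15.5% and 24.1% of all, with a median of -0.99. From fetus to grown pig 1 rose and 30 of 31 fell, against 27.9% and 53.4% of all, with a median of -2.05. At least 2-fold falls numbered 14 of 36 in period II, 13 of 26 in period III and 25 of 31 over the span, where 12.0%, 2.39% and 25.8% of all probe-sets fell as far. In 21 of the 31 every grown pig lay below every fetus, against 21.8% of all.

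A probe-set tested because it is high at the earlier stage is more likely to fall, and one high at the later stage to rise. The counts were therefore also taken over all 45 core probe-sets with no filter on level. In period I 4 of the 45 rose this way, against 14.3% of all. Then 9 of 45 fell in period I, 34 in period II, 31 in period III and 42 over the whole span, and 25.5%, 30.7%, 12.0% and 44.5% of all 23999 probe-sets fell. The core share that fell stood above that of all probe-sets in the later periods under both ways of counting. In period I it stood below, at 25.0% against 41.1% with the filter and, nearer, at 20.0% against 25.5% without. The core median change in period I was -0.21 with the filter and -0.18 without, against -0.15 and -0.09 of all. The lower share called in period I thus did not come with a smaller median fall.

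The choice of scaling bears on period II. When each array was centred on its own median, the median over all probe-sets moved to 0.22 in period II and 0.21 over the whole span, and 15 of 36 core probe-sets fell in period II, 23 of 26 in period III and 27 of 31 over the span. Signs of RNA quality moved in the same interval. As RNA breaks, actin signal near the 3' end gains on that near the 5' end. The actin ratio is given here as a difference of log2 levels between these ends, and so is the GAPDH ratio. The actin ratio lay between 1.14 and 2.23 in the newborns and between 2.85 and 4.41 at 28 dpn. With that ratio as a covariate 7 of 36 core probe-sets fell in period II, and with the GAPDH ratio also 7. The actin ratio does not overlap between these stages, so it and the stage cannot be told apart there. The same holds over the whole span, with 1.54 to 2.84 in the fetuses and 3.27 to 4.62 at 188 dpn. In period III, where it overlaps, 22 of 26 core probe-sets fell with the actin ratio and 24 with the GAPDH ratio. The share of all probe-sets that fell was not counted under centring or these covariates. The core counts cannot be set against it there.

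**Figure D1:**
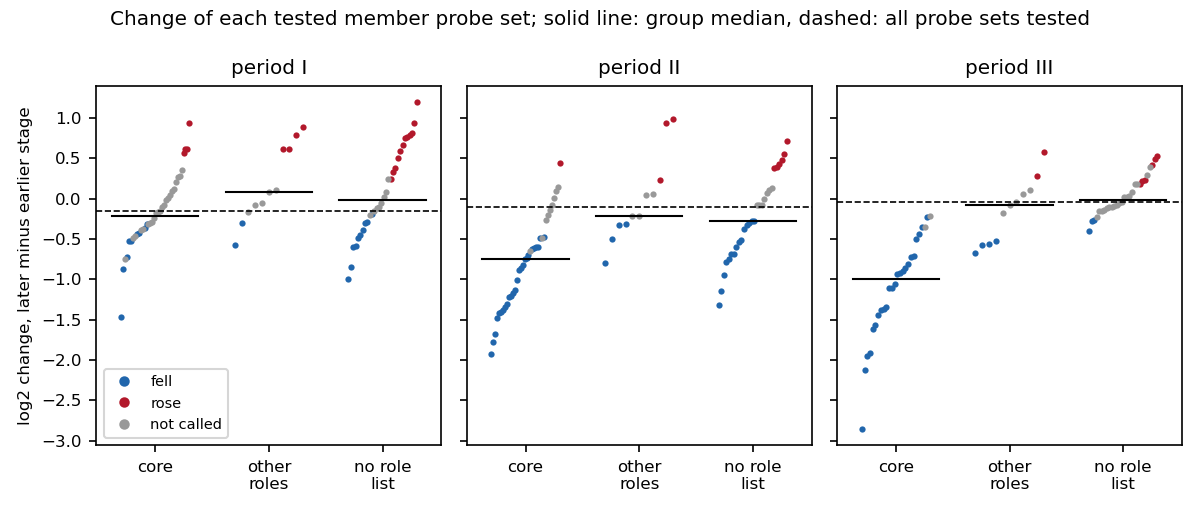
Log2 change of each tested member probe-set (points) in periods I, II and III, in the core, the other role lists and the members in no role list, ordered within a group by size; blue fell, red rose, grey was not called at an adjusted p of 0.05. Solid lines are group medians and dashed lines the median over all probe-sets tested; the core median goes from -0.21 in period I to -0.74 in period II and -0.99 in period III.

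Ribonucleotide reductase, which makes the building blocks of DNA, showed the pattern most plainly. RRM2, its S-phase subunit, had a lowest, median and highest level of 9.92, 10.95 and 11.74 in the fetuses, of 9.20, 10.92 and 11.91 in the newborns, of 7.80, 9.32 and 11.19 at 28 dpn and of 5.47, 6.72 and 7.16 at 188 dpn. Fetuses and newborns had nearly the same median, the newborns ranged wider at both ends, and every grown pig lay below every piglet of 28 dpn. RRM2 changed by -0.02 ± 0.22 (SE) in period I (adjusted p = 0.95), fell by 1.42 ± 0.30 in period II (adjusted p = 0.00013) and by 2.85 ± 0.25 in period III (adjusted p = 2.8e-10). Its fall of 4.29 ± 0.16 over the whole span, 19.5-fold, was the largest of any member probe-set. RRM1, the large subunit, stood at a mean of 11.71 ± 0.23 (SD, n = 15) in the fetuses and 11.60 ± 0.27 (n = 15) in the newborns, then 10.90 ± 0.35 (n = 14) and 9.56 ± 0.41 (n = 16). RRM1 fell by 1.34 ± 0.14 in period III (adjusted p = 5e-09), again without overlap of the animals.

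PCNA, the ring that holds polymerases on DNA, ran from a lowest, median and highest level of 10.19, 11.00 and 11.86 in the fetuses to 9.70, 10.85 and 11.57 in the newborns, 8.82, 9.74 and 10.76 at 28 dpn and 8.00, 8.38 and 8.74 at 188 dpn. The first 2 stages overlapped almost fully and the last 2 not at all. PCNA changed by -0.18 ± 0.15 in period I (adjusted p = 0.3) and fell by 1.01 ± 0.18 in period II (adjusted p = 9.4e-06) and by 1.38 ± 0.15 in period III (adjusted p = 1.7e-08). PCNA, RRM1 and RRM2 were the 3 core probe-sets whose animals did not overlap in period III, where 0.756% of all probe-sets fell without overlap.

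Licensing factors and the replicative helicase fell mostly after birth. Of the 9 probe-sets of this role tested in period I, 1 rose and 3 fell (33.3%, against 41.1% of all probe-sets). The probe-set that rose, of MCM4, was tested through the newborns alone. In period II 6 of 9 fell, against 39.0% of all, with MCM3 and 2 of the 3 probe-sets of MCM5 not called. Those that fell include this MCM4 probe-set and an MCM5 probe-set also tested through the newborns alone, which favours a fall there. In period III 5 of 5 fell and over the whole span 7 of 7, against 24.1% and 53.4% of all. MCM2, a helicase subunit, had its best-lit probe-set at a lowest, median and highest level of 8.99, 9.45 and 9.85 in the fetuses, 7.69, 9.10 and 9.91 in the newborns, 7.32, 8.17 and 9.42 at 28 dpn and 5.31, 7.03 and 7.91 at 188 dpn. Its level stepped down at each stage, with overlap between neighbours, by 0.43 ± 0.16, 0.61 ± 0.23 and 1.44 ± 0.23 (adjusted p = 0.023, 0.019 and 6.1e-06).

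The other helicase subunits differed in when they fell. MCM3 stayed at means of 7.90, 7.75 and 7.67 through 28 dpn and fell by 1.37 ± 0.18 in period III alone (adjusted p = 3.9e-07), since periods I and II gave adjusted p values of 0.49 and 0.74. MCM4 rose by 0.94 ± 0.26 in period I on the 1 probe-set tested (adjusted p = 0.0024), from 6.86 to 7.80, and then fell by 1.34 ± 0.24 in period II (adjusted p = 1.4e-05). Its other probe-set, too dim to be tested, had means of 7.37 and 6.90 at these stages and so differed in sign in period I. The tested MCM4 probe-set was high enough for a test in the newborns alone, which favours a rise in period I and a fall in period II. Of the 3 probe-sets of MCM5, 2 fell in periods I and III and were not called in period II, and the remaining, dimmer one fell by at least 1.78 ± 0.29 in period II, to a level near background. This dimmer probe-set was also tested through the newborns alone, which favours a fall in period II. CDC45, which joins MCM to open the DNA, was level in period I on both probe-sets (0.01 and 0.12) and fell in period II by 0.63 ± 0.16 and 1.38 ± 0.16.

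The DNA polymerases did not move as one. Of 13 tested probe-sets for the clamp, its loader and the polymerases, 3 rose and 4 fell in period I (23.1% and 30.8%, against 23.9% and 41.1% of all). In period II 2 rose and 7 fell (15.4% and 53.8%, against 28.5% and 39.0% of all). The shares that rose were thus not above those of all probe-sets. POLE2 and POLE3, subunits of the leading-strand polymerase epsilon, fell by at least 1.93 ± 0.23 and by 1.16 ± 0.09 over the whole span, while POLE4, a small histone-fold subunit of the same enzyme, rose by 0.87 ± 0.07 (adjusted p = 1.1e-13). Of polymerase delta, the lagging-strand enzyme, POLD2 fell by 0.96 ± 0.17 over the span and POLD3 rose by 0.49 ± 0.16 on the 1 probe-set tested. POLA2, of the priming polymerase, fell by 0.84 ± 0.13, and the clamp loader subunit RFC3 fell by 2.05 ± 0.17 and 1.63 ± 0.15 on its 2 probe-sets. RFC5, another loader subunit, fell by 0.59 ± 0.08.

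POLD4, the smallest and accessory subunit of polymerase delta, rose in every period. Its lowest, median and highest levels were 9.50, 9.89 and 10.31 in the fetuses, 10.44, 10.63 and 10.92 in the newborns, 11.33, 11.69 and 11.95 at 28 dpn and 11.90, 12.24 and 12.77 at 188 dpn. No newborn overlapped a fetus and no piglet of 28 dpn overlapped a newborn, where 4.46% and 4.59% of all probe-sets rose without overlap, while the last 2 stages overlapped by a narrow margin. The steps were 0.79 ± 0.08, 0.98 ± 0.08 and 0.58 ± 0.09 (adjusted p = 2.1e-10, 5e-12 and 1.1e-05), and the rise over the whole span was 2.34 ± 0.09 or 5.08-fold. POLD4 was the member with the largest rise, and 10.3% of all probe-sets rose over the span without overlap.

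**Figure D2:**
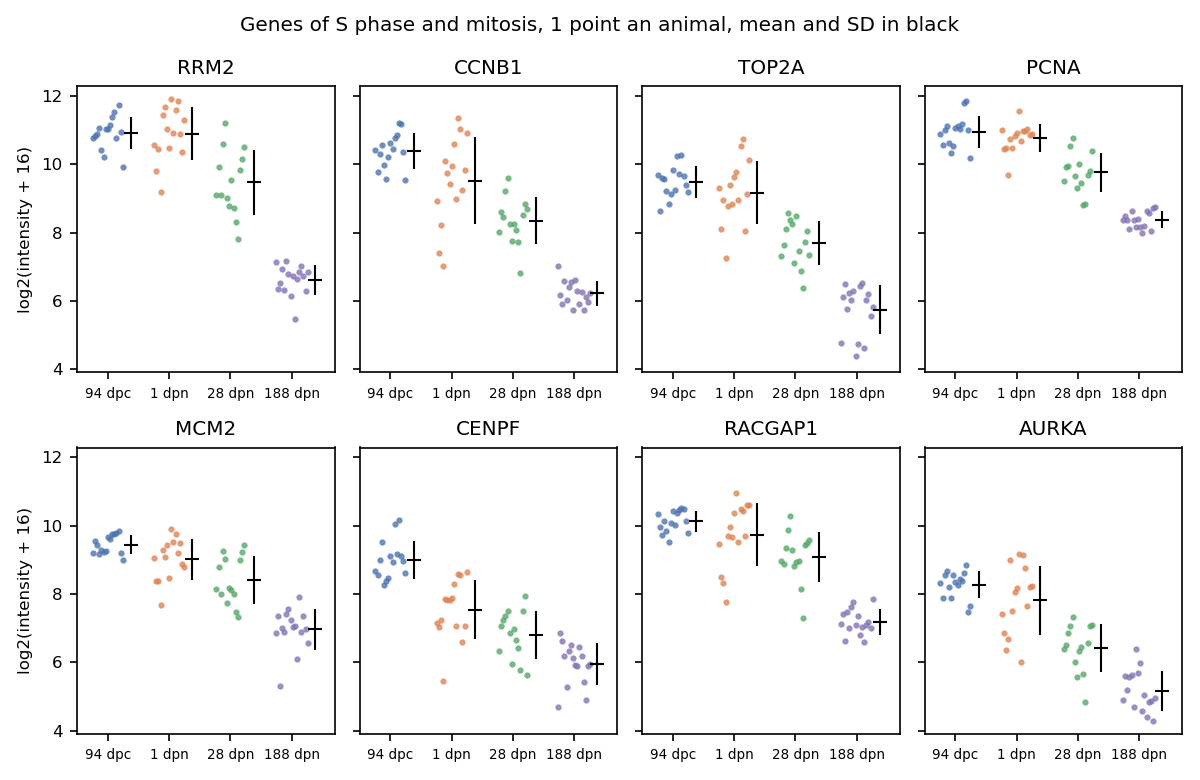
Level, as log2(intensity + 16), of 8 core genes in each animal at 94 dpc, 1 dpn, 28 dpn and 188 dpn (points; 15, 15, 14 and 16 animals), with the mean and SD in black; for AURKA and MCM2 the probe-set with the widest range of stage means is plotted. RRM2 and PCNA are level from 94 dpc to 1 dpn and their 188 dpn animals lie below every 28 dpn animal, CENPF already drops at 1 dpn, and CCNB1 spreads widest in the newborns.

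The cyclins split by type. CCNB1, the partner of CDK1 at entry into mitosis, had a lowest, median and highest level of 9.55, 10.43 and 11.20 in the fetuses, 7.02, 9.75 and 11.36 in the newborns, 6.82, 8.36 and 9.60 at 28 dpn and 5.73, 6.21 and 7.02 at 188 dpn. The newborns reached from near the lowest piglet of 28 dpn to above the highest fetus. CCNB1 fell by 0.87 ± 0.33 in period I (adjusted p = 0.022), by 1.17 ± 0.36 in period II (adjusted p = 0.0048) and by 2.12 ± 0.19 in period III (adjusted p = 2.8e-10), in all 18-fold from fetus to grown pig. CCNB2 fell by 3.20 ± 0.21 over the span, from 8.93 ± 0.40 to 5.73 ± 0.74, a lower limit since its level at 188 dpn was near background. CCNA2, the cyclin of S phase, was too dim for a test, with means of 6.94, 6.92, 5.51 and 4.88, the last 2 near background.

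Background here is the level of 17 control probe-sets for artificial sequence tags that pig RNA does not hold, whose highest mean was 5.86, 6.29, 5.73 and 5.84 at the 4 stages. CCND2, a cyclin that links growth signals to the cycle and is not of the core, rose by 0.62 ± 0.11 in period I, from 8.43 ± 0.32 to 9.04 ± 0.27 (adjusted p = 1.2e-05), and then fell by 0.80 ± 0.13 and 0.58 ± 0.15 (adjusted p = 3.4e-06 and 0.0023). CDC25B, a phosphatase that switches CDK1 on, went down, up and down, by -0.53 ± 0.16, 0.45 ± 0.16 and -0.81 ± 0.14, and was the core probe-set that rose in period II.

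The 3 probe-sets of CDK2, the kinase of S-phase entry, went different ways in period I. They changed by 0.57 ± 0.21 (adjusted p = 0.019), 0.27 ± 0.13 (adjusted p = 0.06) and -0.32 ± 0.09 (adjusted p = 0.0029). In period II the first 2 fell by at least 1.92 ± 0.20 and by 0.60 ± 0.14 and the last changed by 0.14 ± 0.10 (adjusted p = 0.22). The dimmer, steeper probe-set was tested through the newborns alone, where it is high, and reached background at 28 dpn. No single direction can be given for CDK2 in period I. All 6 tested probe-sets of the cyclins and their kinases fell in period III and over the whole span, against 24.1% and 53.4% of all probe-sets.

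Of the genes of the chromosome and its centromere, 5 of 5 tested probe-sets fell in period II, 2 of 3 in period III and 4 of 4 over the whole span. The shares of all probe-sets that fell were 39.0%, 24.1% and 53.4%. CENPB, a protein that binds centromere DNA and is not of the core, moved least, by -0.50 ± 0.09 in period II (adjusted p = 1.8e-05) and -0.35 ± 0.08 over the span, to 9.02 at 188 dpn, and was called in neither period I nor period III (adjusted p = 0.34 and 0.61). TOP2A, which untangles the DNA of sister chromosomes, had a lowest, median and highest level of 8.64, 9.58 and 10.26 in the fetuses, 7.27, 9.14 and 10.73 in the newborns, 6.37, 7.69 and 8.56 at 28 dpn and 4.39, 6.03 and 6.52 at 188 dpn. Its grown-pig mean of 5.75 ± 0.72 was near background. As lower limits, TOP2A fell by 1.94 ± 0.24 in period III (adjusted p = 1.2e-07) and by 3.73 ± 0.21 over the whole span. Its change of -0.31 ± 0.25 in period I, measured well above background at both stages, missed the threshold (adjusted p = 0.29).

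CENPF, a kinetochore protein, was the core probe-set that fell at least 2-fold in period I. Its lowest, median and highest levels were 8.26, 8.98 and 10.16 in the fetuses, 5.46, 7.82 and 8.65 in the newborns, 5.62, 6.92 and 7.96 at 28 dpn and 4.69, 6.04 and 6.86 at 188 dpn. Fetuses and newborns overlapped in a narrow band. CENPF fell by 1.47 ± 0.25 in period I (adjusted p = 6.6e-06), when 8.14% of all probe-sets fell 2-fold, and by 0.74 ± 0.28 in period II (adjusted p = 0.02). CENPH and CENPO, parts of the inner kinetochore, were not called in period I, at -0.24 ± 0.20 and 0.27 ± 0.25 (adjusted p = 0.29 and 0.35). They fell by 1.21 ± 0.25 and 1.30 ± 0.28 in period II. Whether CENPF differs from them in period I was not tested. CENPH was high enough for a test in the newborns alone, which works against a fall in period I and favours a fall in period II.

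The mitotic kinases and the genes of cell cleavage followed. AURKA, which builds the spindle poles, changed by -0.30 ± 0.26 and -0.46 ± 0.26 in period I on its 2 probe-sets (adjusted p = 0.31 and 0.13), and both fell in period II, by 1.22 ± 0.31 and 1.40 ± 0.30, and over the span, by 2.63 ± 0.19 and at least 3.11 ± 0.17. AURKB, the kinase that checks chromosome attachment, fell by 0.82 ± 0.31 in period II and 0.92 ± 0.28 in period III. PLK1, the Polo kinase, moved least of these, with means of 8.14, 7.65, 7.16 and 6.67 and a fall called in period III (0.50 ± 0.17, adjusted p = 0.016) and not in periods I and II (adjusted p = 0.19 and 0.2). RACGAP1, which organises the cleavage furrow, had means of 10.13 ± 0.31, 9.74 ± 0.93, 9.09 ± 0.73 and 7.19 ± 0.37, was called neither in period I nor in period II (adjusted p = 0.15 and 0.052), and fell by 1.91 ± 0.20 in period III (adjusted p = 5.1e-09).

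Checkpoint genes and parts of the machinery that destroys cyclins were mixed. CHEK1, the kinase that halts a cell with unfinished DNA, was level around birth at 7.59 ± 0.42 and 7.69 ± 0.31 and fell by 1.68 ± 0.21 in period II, to 6.00 ± 0.77 (adjusted p = 2.1e-08). CDC20, the activator of the anaphase-promoting complex, changed by 0.21 ± 0.26 in period I (adjusted p = 0.49) and fell by 0.86 ± 0.29 and 1.61 ± 0.21 in periods II and III. CDC23, a scaffold of that complex, fell in period III (0.67 ± 0.13, adjusted p = 0.00018), whereas CDC26, a small part of it, rose by 0.62 ± 0.10 in period I and was called in neither later period. BUB3, of the spindle checkpoint, fell by 0.46 over the span, from 10.95 to 10.49.

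CDC34, an enzyme that tags cell cycle inhibitors for destruction and many other proteins besides, rose in every period. Its lowest, median and highest levels were 10.36, 10.71 and 11.03 in the fetuses, 11.12, 11.61 and 12.08 in the newborns, 11.53, 11.82 and 12.11 at 28 dpn and 11.50, 12.08 and 12.57 at 188 dpn. The step in period I cleared every animal, and the later stages overlapped. CDC34 rose by 0.88 ± 0.08 in period I (adjusted p = 8e-11), by 0.23 ± 0.09 in period II (adjusted p = 0.023) and by 0.28 ± 0.10 in period III (adjusted p = 0.021).

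The members outside the core moved both ways. Of the 11 tested probe-sets with a role but no S-phase to mitosis peak, 4 rose and 7 fell over the span (36.4% and 63.6%, against 27.9% and 53.4% of all), at a median of -0.46. Those that rose were POLD4, POLE4, CDC34 and CDC26. Of the 30 tested probe-sets in no role list, 12 rose and 10 fell in period I (40.0% and 33.3%, against 23.9% and 41.1% of all). In period II 6 rose and 15 of 28 fell (21.4% and 53.6%, against 28.5% and 39.0% of all). In period III 6 rose and 3 of 28 fell (21.4% and 10.7%, against 15.5% and 24.1% of all). Over the span 9 rose and 12 fell (30.0% and 40.0%, against 27.9% and 53.4% of all). Their median over the span was -0.07, above that of all probe-sets.

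Among them, CDK2AP2, a small protein named for binding a CDK2 partner, was the member that rose at least 2-fold within a period. Its lowest, median and highest levels were 9.07, 9.61 and 9.98 in the fetuses, 10.39, 10.75 and 11.15 in the newborns, 9.78, 10.20 and 10.46 at 28 dpn and 9.71, 10.10 and 10.45 at 188 dpn. Every newborn lay above every fetus, and the medians of the older stages lay between, with animals that overlapped both. CDK2AP2 rose by 1.19 ± 0.09 in period I (adjusted p = 8.3e-13), when 5.32% of all probe-sets rose 2-fold, and fell by 0.60 ± 0.09 in period II (adjusted p = 6.2e-07).

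POLDIP2, found as a binding partner of polymerase delta and also a mitochondrial protein, rose over the span by 1.45 ± 0.07 and 1.56 ± 0.09 on its 2 probe-sets (adjusted p = 1.8e-18 and 2.1e-17). The first stood still in period II at -0.01 ± 0.08 under the authors' scaling and rose there by 0.31 with arrays centred on their median. CDK5 and CDK9, kinases that act in nerve cells and in transcription, rose by 0.92 ± 0.10 and 0.72 ± 0.10. CDK7, which activates other CDKs and is part of the transcription machinery, fell by 1.27 ± 0.16, and the splicing factor CDC5L fell by 1.25 ± 0.10 and 1.32 ± 0.14 on its 2 probe-sets.

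CCNB1IP1, a ligase that binds cyclin B1, fell by 0.39 ± 0.13 in period I and 0.95 ± 0.13 in period II and then stayed level (0.02 ± 0.10, adjusted p = 0.92). KIF2A, a spindle and nerve kinesin, fell by 1.00 ± 0.28 in period I (adjusted p = 0.0024), and KIFAP3, an adaptor of transport kinesins, fell by 0.85 ± 0.13. Probe-sets of 1 gene went opposite ways for POLDIP3 in all 3 periods and for CDK16 over the span, so these genes have no single direction.

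**Figure D3:**
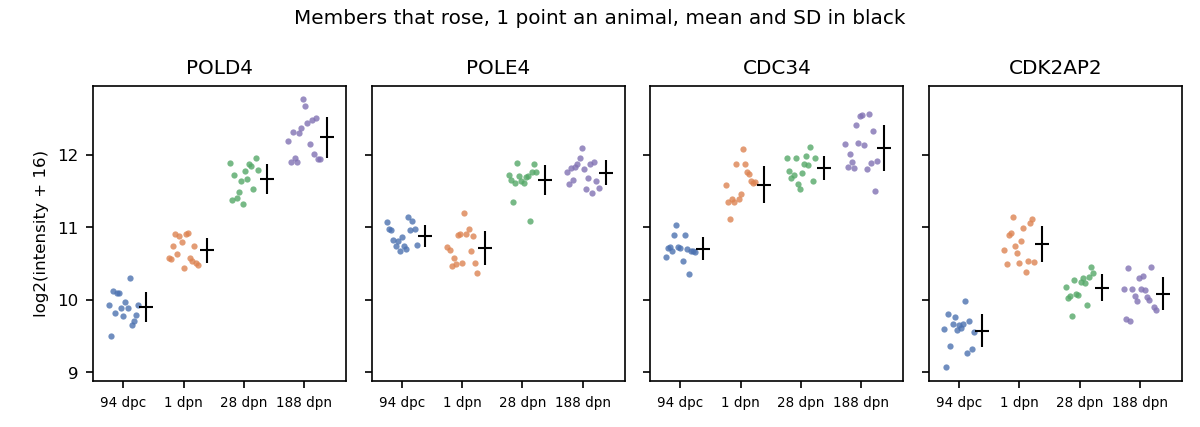
Level, as log2(intensity + 16), of POLD4, POLE4, CDC34 and CDK2AP2 in each animal at the 4 stages, with the mean and SD in black; the vertical axis does not start at 0. POLD4 steps up at each stage, from a mean of 9.90 to 12.24, POLE4 rises between 1 dpn and 28 dpn, CDC34 rises mostly at birth, and CDK2AP2 is highest in the newborns.

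The stage of the highest mean sums up the split. Of 36 core probe-sets tested over the 4 stages, 24 had their highest mean at 94 dpc, 11 at 1 dpn, 1 at 28 dpn and none at 188 dpn, against 44.6%, 21.0%, 14.3% and 20.2% of all probe-sets. The lowest mean was at 188 dpn in 34 of the 36, against 37.3% of all. The 2 exceptions were the probe-sets of POLD3, lowest in the fetuses. Of the 30 in no role list, 8 were lowest at 188 dpn and 10 at 94 dpc (26.7% and 33.3%, against 37.3% and 21.9% of all).

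The 9 core probe-sets too dim for the test over the 4 stages are of CCNA2, CDC25C, CENPI, CHEK1, KIF20A, KIFC1, MCM2, MCM4 and POLE2. Of these, KIF20A, a kinesin of the cleavage furrow, had means of 6.32, 6.29, 5.39 and 5.21, and KIFC1, a kinesin of the spindle, 7.15, 7.20, 6.80 and 6.73. The dim MCM2 probe-set was highest in the newborns (5.66, 6.46, 6.42 and 5.77), unlike the other 2 of that gene, and was near background in fetuses and grown pigs. The other untested members are 11 probe-sets in no role list, among them 4 of KIF3A and 2 of PLK3, and CENPT.

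Animals of a stage did not have equal levels, and the core mean spread most in the newborns. The mean over the 45 core probe-sets had a lowest, median and highest value of 7.88, 8.28 and 8.69 in the fetuses, 7.04, 8.26 and 8.78 in the newborns, 6.65, 7.26 and 7.90 at 28 dpn and 6.30, 6.44 and 6.75 at 188 dpn. Its SD over animals was 0.26, 0.51, 0.35 and 0.12. The mean over the 41 probe-sets in no role list had SDs of 0.07, 0.08, 0.05 and 0.07, so the spread of the core mean did not come with a like spread of the namesakes. Single core probe-sets spread more in newborns than in fetuses in 30 of 36 cases (83.3%), but so did 77.7% of all probe-sets, a share near that of the core.

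The low end of the newborns was made up of the same few animals. Newborn 4 had the lowest value of the 15 in 23 of the 36 tested core probe-sets, and newborns 2, 3 and 4 lay below the newborn median in 35, 34 and 35 of them. Newborns 9 and 11 had the highest value in 12 and 11. CCNB1 stood at 7.40, 8.22 and 7.02 in newborns 2, 3 and 4 and at 10.58 and 11.36 in newborns 9 and 11, and PLK1 at 6.32, 5.65 and 5.21 against 9.20 and 9.28. The spread of CCNB1 among the newborns was thus wider than its mean fall in any period. POLD4, in contrast, read 10.56, 10.75 and 10.91 against 10.91 and 10.58 in the same animals. At 28 dpn piglet 11 had the lowest value in 15 of 36, while at 94 dpc and 188 dpn no animal had the lowest value in more than 8.

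The mean level of neutrophil markers was 9.68 in newborn 4, the highest of the newborns, and 7.97 and 7.05 in newborns 2 and 3, inside their range. The erythroid mean was 7.81, 7.61 and 7.99 in these 3, near the newborn median of 7.81. The part of either cell type in these low values was not tested. Without newborn 4, 5 core probe-sets rose and 9 fell in period I, and 28 of 36 fell in period II. The share of all probe-sets was not counted without newborn 4. This animal was left out for its low values in these same probe-sets, which favours more rises in period I and more falls in period II.

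**Figure D4:**
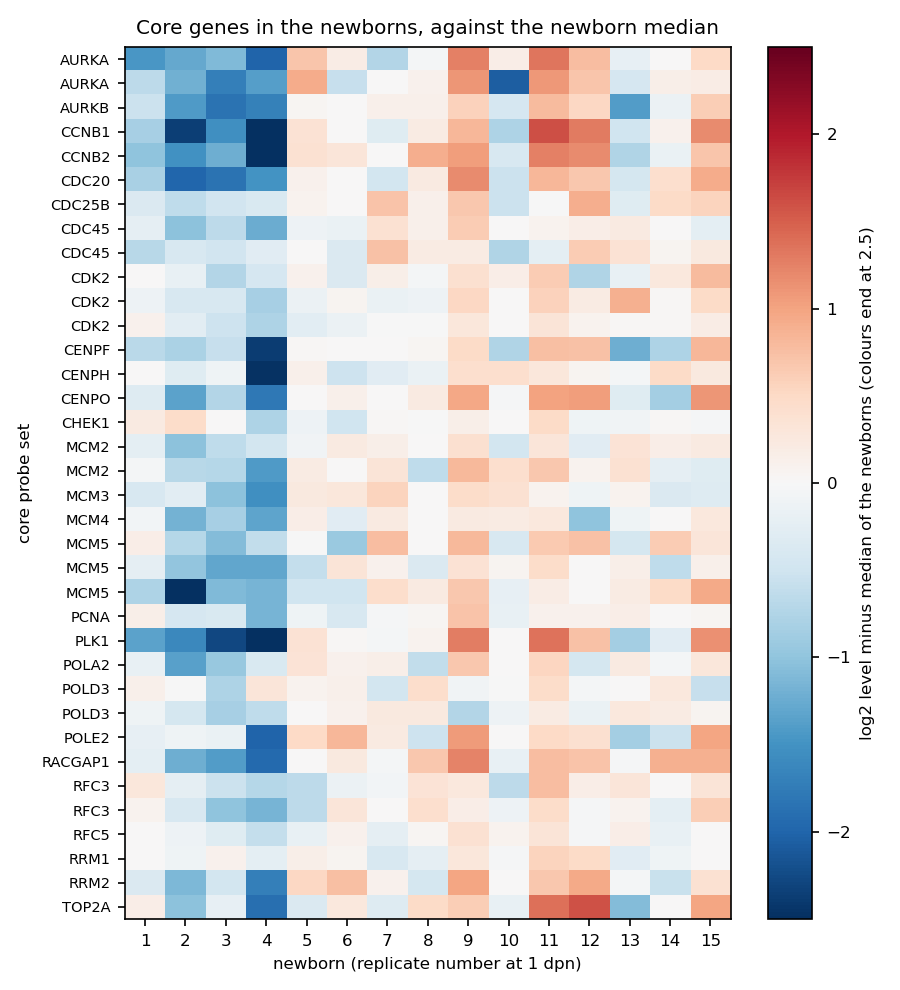
Level of the 36 tested core probe-sets (rows, by gene) in the 15 newborns (columns, by replicate number), as log2 level minus the median of the newborns; colours end at 2.5 either way. Newborns 2, 3 and 4 are blue in nearly every row and newborns 9, 11 and 15 mostly red.

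Blood-forming cells leave the pig liver around birth, and their markers were followed beside the core genes. All 11 erythroid marker genes on the array fell in period I, at a median of -2.20, and their mean level went from 10.21 ± 0.40 in the fetuses to 7.86 ± 0.45, 7.78 ± 0.27 and 7.77 ± 0.25 in the later stages. AHSP, which guards free alpha-globin, fell from 13.03 ± 0.53 to 8.66 ± 0.80 in period I, and KLF1, the erythroid regulator, from 10.03 ± 0.52 to 7.20 ± 0.63. In period II 2 of the 6 tested erythroid markers rose and 1 fell, and in period III none of 6 was called. With the erythroid mean as a covariate 26 of 36 core probe-sets fell in period II and 24 of 26 in period III, but none of 36 fell in period I and 7 of 31 over the whole span. The share of all probe-sets that fell was not counted with this covariate. The erythroid mean of the fetuses (9.21 to 10.85) overlaps neither that of the newborns (7.04 to 8.61) nor that of the grown pigs (7.23 to 8.25), so the covariate and the stage cannot be told apart in period I or over the span.

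Neutrophil markers moved with the core genes in part: all 8 tested fell in period I and all 6 in period II, and their mean went from 9.46 ± 0.51 to 7.89 ± 0.77, 6.81 ± 0.42 and 6.73 ± 0.34. Megakaryocyte markers fell in period I (4 of 4). Macrophage markers, at means of 10.53, 10.96, 11.75 and 10.97, were mixed at first, with 4 of 7 rising and 1 falling in each of periods I and II, and 6 of 7 fell in period III, beside the core genes. Lymphocyte markers had means of 6.24, 6.15, 6.87 and 6.77, with 4 of 5 tested rising in period II and 1 rising and 2 falling in period III. Bile duct markers had means of 7.24, 7.25, 7.14 and 6.64, and 3 of 3 tested fell in period III, at a median of -0.97. Hepatocyte markers had means of 15.26, 15.31, 14.91 and 15.16, by far the highest of these lists, with 12 of 15 falling in period II and 11 of 15 rising in period III. Of all probe-sets tested, 23.9%, 28.5% and 15.5% rose and 41.1%, 39.0% and 24.1% fell in the 3 periods. The part of these cell types in the core changes was not tested.

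**Figure D5:**
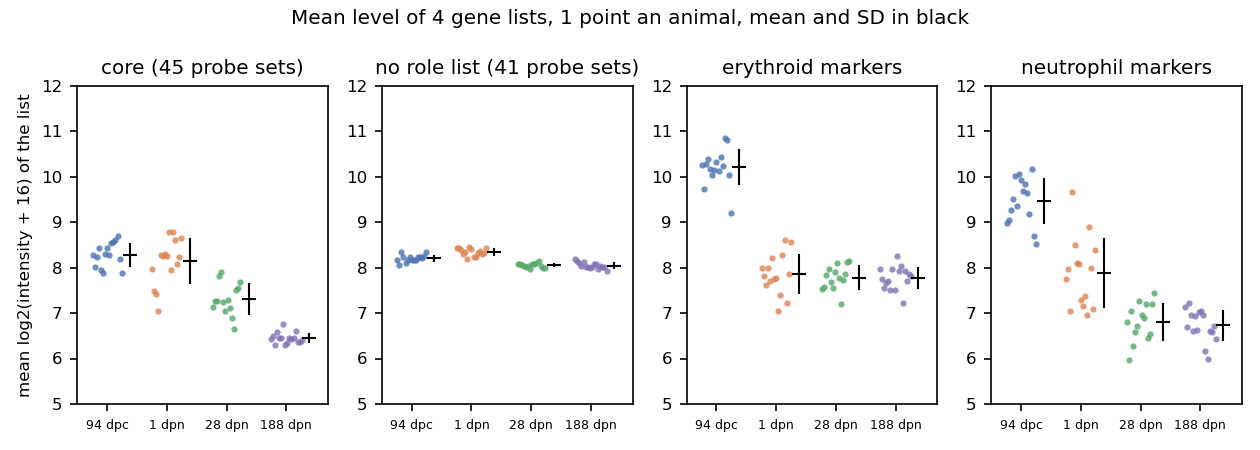
Mean log2(intensity + 16) over the core probe-sets, the members in no role list, the erythroid markers and the neutrophil markers in each animal at the 4 stages, with the mean and SD in black. The core mean is level from fetus to newborn and then drops in 2 steps, the members in no role list stay between 7.93 and 8.45, and the erythroid mean drops once, at birth.

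Other genes of the same pathways, outside the member names, were read as lists. Of 18 tested S-phase genes, 3 rose and 10 fell in period I, 1 and 14 in period II, none and 9 of 15 in period III, and 1 and 17 over the span, at a median of -1.29. The shares that fell were 55.6%, 77.8%, 60.0% and 94.4%, against 41.1%, 39.0%, 24.1% and 53.4% of all probe-sets, so in period I this list stood above the share of all and the core, at 25.0%, below it. ORC1, which marks the origins, TYMS, the thymidylate synthase, and ASF1B, a histone chaperone, fell over the span by at least 3.07 ± 0.17, by 3.02 ± 0.19 and by at least 3.43 ± 0.18. These 3 also fell in period I, by 0.41 ± 0.15, 0.44 ± 0.15 and 0.69 ± 0.22.

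Of 23 tested mitosis genes, 2 rose and 11 fell in period I, none rose and 14 fell in period II, none rose and 17 of 20 fell in period III, and all 22 tested fell over the span, at a median of -1.90. The shares that fell in the 3 periods were 47.8%, 60.9% and 85.0%, against 41.1%, 39.0% and 24.1% of all probe-sets. The first lay near that of all. PTTG1, securin, fell by 3.46 ± 0.18 over the span, HMGB2, a chromatin protein of dividing cells, by 3.44 ± 0.13, and DLGAP5, a spindle protein, by at least 3.33 ± 0.23. HMGB2 took 1.45 ± 0.17 of this in period I (adjusted p = 8.4e-09), and PTTG1 took 2.06 ± 0.24 in period III.

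Of the 6 transcription factors of the programme that were tested in period I, 1 rose and 3 fell (16.7% and 50.0%, against 23.9% and 41.1% of all). MYBL2, which switches on mitotic genes, fell in each period, by 1.15 ± 0.26 in period I (adjusted p = 0.00026) and by 1.18 ± 0.28 in period III (adjusted p = 0.001). MYC, a growth regulator, fell by 1.68 ± 0.21 in period I (adjusted p = 2.3e-08) and was not called in period II (adjusted p = 0.6). TFDP2, a partner of E2F that is also made in red cell precursors, fell by 2.06 ± 0.21 in period I, with no overlap of the animals, as 5.53% of all probe-sets did.

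The inhibitors of division were mixed. Of 12 tested, 3 rose and 6 fell in period I (25.0% and 50.0%, against 23.9% and 41.1% of all). In period II 3 rose and 4 fell (25.0% and 33.3%, against 28.5% and 39.0% of all). In period III 2 rose and 2 of 11 fell (18.2% and 18.2%, against 15.5% and 24.1% of all). Over the span 1 rose and 7 fell (8.33% and 58.3%, against 27.9% and 53.4% of all). The shares that rose in periods II and III, 25.0% and 18.2%, lay near those of all probe-sets, 28.5% and 15.5%, and the change over the span was at a median of -0.33 against -0.34 for all probe-sets. CDKN2C, an inhibitor of CDK4, fell with the core genes by at least 2.12 ± 0.21 over the span. BTG2, an antiproliferative gene of early response, went up in period I, down in period II and up in period III, by 0.66 ± 0.21, -1.49 ± 0.17 and 0.83 ± 0.17, and ended level (0.00 ± 0.21). GADD45G, a stress gene, spread from 8.66 to 12.94 in the fetuses and fell by 1.70 ± 0.36 in period I.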

How the data were processed

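Liver RNA of each animal was hybridised to an Affymetrix porcine array. The deposited table holds intensities on a linear scale that the authors made with GCOS 1.1.1, each array scaled to a trimmed mean near 500. Precision rests on the number of animals, since arrays give no counts, and no pair of arrays was identical. Of 24123 probe-sets, 124 controls were left out, and 10069 had a single gene symbol in the platform annotation, which can be old. Intensities were set to log2(value + 16) and each pair of stages was fitted with limma 3.58.1 in R 4.3.3, two-sided, with Benjamini-Hochberg adjustment over all probe-sets tested. A probe-set was tested when above its array's median in at least 50% of the animals of a stage compared, and the scripts were tested on simulated data. Members, lists and tests were chosen with earlier results of these data known. Named genes were a fixed set (PCNA, MCM, RRM1, RRM2, TOP2A, CHEK1, RACGAP1, A, B and D cyclins, CDK2), up to 4 probe-sets a role with the widest range of stage means, members that rose 2-fold, and up to 3 genes of each other list; members outside it were named after their values were seen. Alternatives were other scalings, filters and pseudocounts, covariates, array removal, a fit of all 60 arrays and 1 probe-set a gene.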

Additional observations from a re-analysis of the deposited data

How the results depend on the processing

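No paired analysis was possible because the labels give the stages no shared replicate numbers. Counts of members that rose or fell were 20 and 21 in period I, 10 and 45 in period II, 8 and 31 in period III and 14 and 49 over the span, with 75 changed over the 4 stages. With arrays centred on their median, members gave 11 falls in period I, 20 rises and 24 falls in period II and 23 rises over the span, and the core 4 falls in period I and 4 rises and 15 falls in period II. Quantile normalization gave 3 core rises in period II. The 75th percentile filter, which left 28 to 38 members and 6 to 11 core probe-sets to test, gave 12 member rises in period I, 20 falls in period II, 8 in period III, 17 over the span and 38 changed over the 4 stages, and core counts of 0 rises and 5 falls, 0 and 8, 6 falls, 0 and 10, and 11 changed. With the actin ratio as covariate, 13 members fell in period II, and the core had 5 falls in period I, 0 rises and 7 falls in period II and 0 rises over the span. With the GAPDH ratio, members had 8 rises and 1 fall in period I, 18 falls in period II and 5 rises in period III, and the core 0 and 1 in period I, 0 and 7 in period II and 0 rises over the span. With the erythroid mean, members had 2 rises and 2 falls in period I and 5 and 11 over the span, and the core 0 and 0 in period I and 0 and 7 over the span. With 1 probe-set a gene, 2 core probe-sets rose in period I. The filter tests fewer probe-sets by construction. Stages do not overlap in the erythroid mean and the GAPDH ratio in period I, nor in the actin ratio in period II. Over the whole span they overlap neither in the erythroid mean nor in the actin ratio. No other cause was tested. Shares over all probe-sets were not counted under the alternatives of this paragraph.

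For single genes, signs turned in period I with the erythroid covariate for ASF1B (0.53), CCNB1 (1.45), CENPF (0.36), DLGAP5 (1.18), MCM5 (0.033), MYBL2 (0.23), ORC1 (0.24), PTTG1 (0.95), RFC3 (0.65) and TYMS (0.20), with adjusted p from 0.29 to 0.97. In period II they turned for AURKA (0.044) and CDC20 (0.038) with the GAPDH ratio, CDK2 (0.11) with the actin ratio and POLDIP2 (0.31) with centred arrays. Another 48 sign changes joined values that both missed the threshold. The newborn left out and the core counts were chosen after seeing the data. Other pseudocounts, no filter, a fit of all 60 arrays and leaving out the least correlated array of each stage kept every member and core count within 1.5 times. Background signal limits the falls of genes that end near the control tags, and 21 of 98 members were too dim for a test over the 4 stages.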
